A study of Mus musculus with 8 samples.

Results

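The alpha-arrestins taken as members here were Txnip, Arrdc1, Arrdc2, Arrdc3 and Arrdc4, 5 of the 30397 gene symbols on the array. They were not taken to be the whole family. Their probes were all the non-control probes that the scanner files assign to one of these names. There were 9 such probes, 2 for each gene except Arrdc3, which had 1. All 9 were well above background on all 8 arrays and none was saturated, so all 5 genes were among the 18116 tested. Txnip was chosen by its large fall in every knockdown on these same arrays. Its differences from control KD are therefore given as a description with no test, while comparisons between knockdowns, which the choice did not use, were tested.

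Mouse embryonic stem cells (ESCs) of the E14 line were grown without feeder cells in medium with serum and LIF and infected with lentivirus expressing short hairpin RNAs. Each of 4 groups had 2 arrays, A and B: control KD (a hairpin against GFP), Tip60 KD, Hdac6 KD and double KD (both targets), all harvested 72 hr after infection. Tip60 is the acetyltransferase of the Tip60-p400 chromatin complex and Hdac6 a deacetylase that associates with that complex in ESCs, and the design asks how far the loss of each, alone or together, changes the same genes. Every group, control KD included, carried a lentiviral hairpin, and each target was depleted with a single hairpin, so effects of the target and of that hairpin cannot be told apart.

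Kat5, which encodes Tip60, was at 39.2% of control KD in Tip60 KD and at 40.4% in double KD, and Hdac6 was at 17.8% in Hdac6 KD and 27.3% in double KD. Hdac6 was also lower in Tip60 KD (73.9% of control KD, limma adjusted p = 0.00622). Between 21896 and 40609 of 43020 spots per array were well above background, and the 2 arrays of a group correlated at 0.986 to 0.989. The A arrays lay on one slide and the B arrays on the other, with each group at the same position on both, so position and group cannot be told apart. All 8 of 8 ESC markers were tested and their summed signal was 298 to 331 times the array's 75th percentile in every group. Single markers did move, and Pou5f1 was higher in each knockdown (1.01, 0.47 and 0.63 on the log2 scale, adjusted p = 0.00277, 0.0453 and 0.0171). Of the 8 ESC markers, 2 were called higher and 0 lower in Tip60 KD, beside 19.7% and 20% of all genes. In Hdac6 KD 2 were higher and 0 lower (14% and 14.9% of all genes). In double KD 3 were higher and 1 lower (15.9% and 16.9% of all genes). Of 5 fibroblast markers 3 were tested, with a summed signal of 2.28 to 2.63 in control KD, 2.83 to 3.35 in Tip60 KD, 1.96 to 2.10 in Hdac6 KD and 2.89 to 3.24 in double KD, while Col1a2 and Postn did not pass the filter. Their part in the results was not tested. In bulk RNA of this kind, fewer cells expressing a gene and less RNA per cell cannot be told apart.

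Alpha-arrestins are adaptor proteins with an arrestin fold. Most carry PPxY motifs that bind ubiquitin ligases of the Nedd4 family, through which they send membrane proteins to be internalised. Txnip binds thioredoxin and restrains glucose uptake by promoting the internalisation of glucose transporters, and Arrdc4 also limits glucose uptake. Both genes are known targets of the glucose-sensing factors Mlxip (MondoA) and Mlxipl (ChREBP), which bind with Mlx to a carbohydrate response element built from a pair of E-box-like sites. Arrdc1 drives the budding of vesicles from the plasma membrane, Arrdc3 has been linked to the trafficking of membrane receptors, and Arrdc2 is the least studied of the group.

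The promoters of the 2 members with the largest range over the groups are shown because that element can be read in one of them. They are the 250 bases before the RefSeq start site in build GRCm38.p6, at chr3:96557707-96557956 on the + strand for Txnip and chr7:68749239-68749488 on the - strand for Arrdc4. Capitals mark matches, on either strand, to the box CACGAG, to the canonical E-box that reads CACGTG and to the letters of a CCAAT box.
Txnip: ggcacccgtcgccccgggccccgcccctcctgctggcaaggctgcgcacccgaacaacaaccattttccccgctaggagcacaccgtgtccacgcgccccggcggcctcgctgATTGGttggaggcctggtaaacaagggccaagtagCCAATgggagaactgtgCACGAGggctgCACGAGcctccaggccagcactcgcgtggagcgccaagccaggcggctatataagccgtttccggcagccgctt
Arrdc4: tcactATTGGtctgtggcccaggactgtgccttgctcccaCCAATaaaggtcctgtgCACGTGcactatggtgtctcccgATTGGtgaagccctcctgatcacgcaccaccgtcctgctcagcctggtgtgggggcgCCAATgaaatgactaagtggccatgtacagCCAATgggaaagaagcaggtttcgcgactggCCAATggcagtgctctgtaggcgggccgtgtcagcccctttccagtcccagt
Txnip held a pair of CACGAG boxes separated by 5 bases, from 85 to 69 bases before the start. The paired pattern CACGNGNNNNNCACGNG, which covers both boxes and so overlaps CACGAG, was found in 15 of 32841 RefSeq promoters of the same length (0.0457%), and among the 5 members in Txnip only. The pattern was written with the Txnip promoter known. Arrdc4 had instead 1 CACGTG box, 193 to 188 bases before its start, a match held by 6.02% of promoters. The single box, CACGAG alone, was found in 5.37% of promoters and also occurred in Arrdc1 (2 matches) and Arrdc2 (1 match). Arrdc1 thus had as many matches to this box as Txnip, and 0.262% of promoters had 2 or more. CCAAT, held by 33.9% of promoters, matched 6 times in Arrdc4 and 2 times in Txnip, and 0.0579% of promoters had 6 or more matches and 10.1% had 2 or more. Arrdc2 had 3 such matches (2.79% had as many), and 2 of the 3 Arrdc3 promoters had 1. All 5 members were matched to 7 RefSeq promoters, of which 3 belong to Arrdc3. A match is a description of the sequence and not evidence of binding.

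Txnip had the highest signal in control KD and fell in each knockdown. Values are log2 of the signal relative to the array's 75th percentile. At its brighter probe (mm9 chr3:96365147-96365206) the control KD arrays read 4.57 and 4.43, the Tip60 KD arrays 1.78 and 1.49, those of Hdac6 KD 2.12 and 1.88, and the double KD arrays 2.47 and 2.19. All 6 knockdown arrays lay below both control KD arrays. Tip60 KD differed from control KD by -2.87, Hdac6 KD by -2.50 and the double knockdown by -2.17 (SE 0.16 each, n = 2 arrays per group), which left 13.7%, 17.7% and 22.3% of the control signal. Counted from the lowest of 18116 genes, Txnip was number 5 in Tip60 KD, number 3 after the loss of Hdac6 and number 5 in the double knockdown. These ranks restate the values by which Txnip was chosen.

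The other Txnip probe (mm9 chr3:96364206-96364265) read 3.68 and 3.76 on the control KD arrays, 1.82 and 1.91 on those of Tip60 KD, 1.80 and 2.02 on those of Hdac6 KD, and 2.11 and 2.05 on the double KD arrays. Its remaining signal in the knockdowns was 27.5%, 28.4% and 32.1% of control KD in the same order. The direction was thus shared by both probes, and the fall was smaller at the second one.

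**Figure D1:**
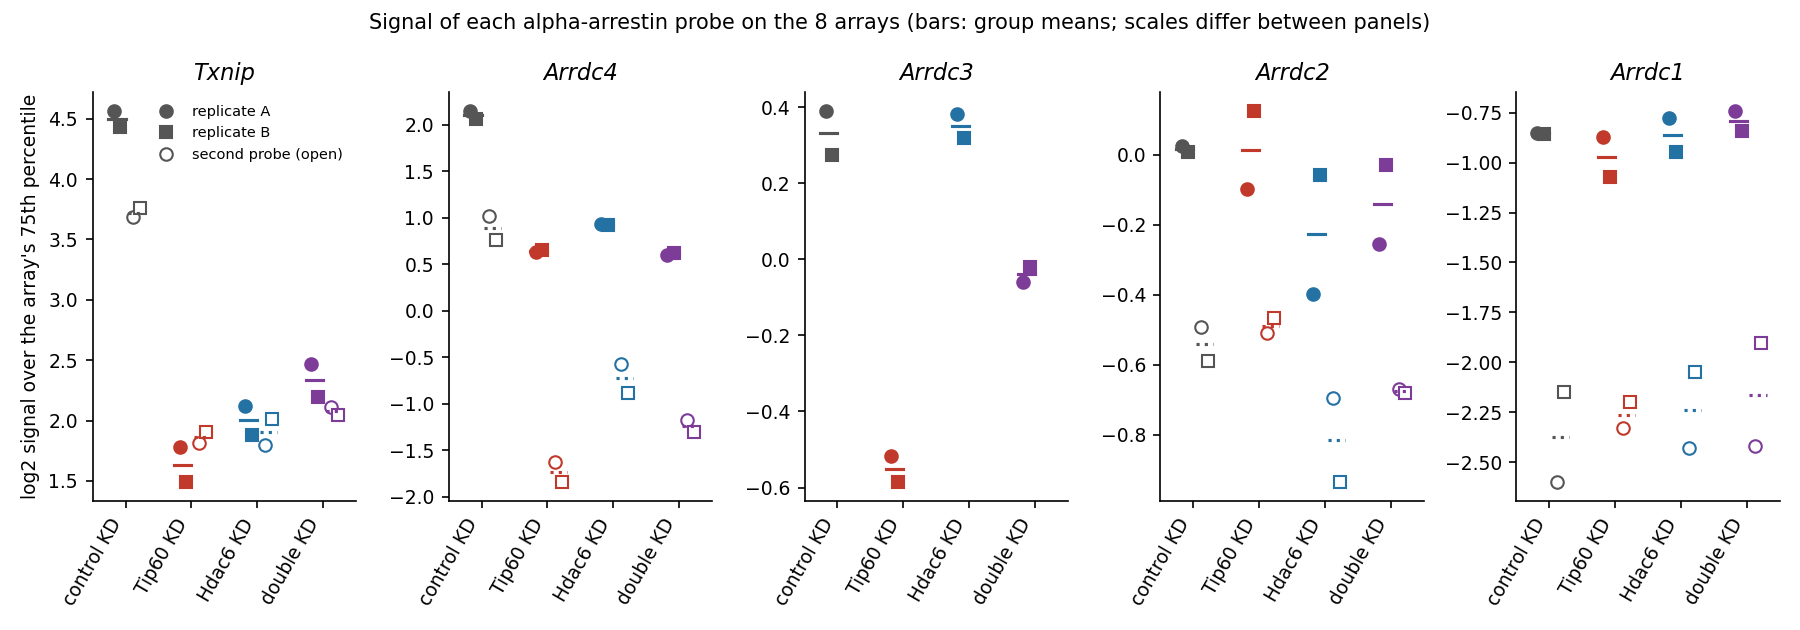
Log2 signal relative to the array's 75th percentile (y axis, a separate scale per gene) of every alpha-arrestin probe on each of the 8 arrays by group (x axis), with filled symbols for the brightest probe, open symbols for the second probe, circles for replicate A, squares for replicate B and bars for group means. Both Txnip and both Arrdc4 probes lay lower on all 6 knockdown arrays than on the 2 control KD arrays, and the one Arrdc3 probe was lowest in Tip60 KD.

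Whether the knockdowns differed from each other in their Txnip level was tested. Double KD retained more Txnip signal than Tip60 KD, by 0.70 on the log2 scale (95% interval 0.31 to 1.09), with an adjusted p of 0.112 that misses the threshold of 0.1. The difference of Tip60 KD from Hdac6 KD was -0.37 (interval -0.75 to 0.02, adjusted p = 0.192), and that of double KD from Hdac6 KD was 0.33 (adjusted p = 0.325). Within slide A and within slide B the order was the same, Tip60 KD lowest, then Hdac6 KD, then double KD. With the replicate block, which compares the arrays within each slide, all these differences passed the threshold (adjusted p = 0.00863, 0.00833 and 0.0194), and the first 2 also passed with quantile normalization (0.0608 and 0.0936). At the second probe they were 0.22, -0.05 and 0.17, with adjusted p of 0.320, 0.893 and 0.428, and neither the fit without the block nor the one with it called them.

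Arrdc4 was the other member that fell in every knockdown, and here the differences from control KD were tested. Its brightest probe (mm9 chr7:75886496-75886555, the files' transcript variant 2) read 2.15 and 2.06 on the control KD arrays, 0.64 and 0.65 on those of Tip60 KD, 0.93 and 0.92 on those of Hdac6 KD, and 0.60 and 0.63 on the double KD arrays. No knockdown array came near the control KD arrays, and the 2 arrays of each knockdown differed by less than their distance to control KD. The change was -1.46 in Tip60 KD (36.4% of control KD, adjusted p = 0.000525), -1.18 with Hdac6 depleted (44.2%, adjusted p = 0.00159) and -1.49 with both depleted (35.6%, adjusted p = 0.000847), each with an SE of 0.07. These calls held under all 20 alternatives run. The 3 comparisons share the same 2 control KD arrays.

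The second Arrdc4 probe (mm9 chr7:75881905-75881964, transcript variant 1), printed 10 times on each array, fell further. It read 1.02 and 0.76 on the control KD arrays, -1.63 and -1.84 on those of Tip60 KD, -0.57 and -0.88 on those of Hdac6 KD, and -1.17 and -1.31 with both depleted. The signal left was 16.2%, 32.7% and 22.9% of control KD (adjusted p = 0.000550, 0.00291 and 0.00140 with every probe tested). Its unmarked spots, 8 to 10 per array, varied by 0.04 to 0.12 (SD, log2) within an array, which measures spot noise and not the spread between samples. The 2 probes are annotated to different transcript variants, and whether the probe or the transcript sets the difference in size was not tested.

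The order of the knockdowns also depended on the Arrdc4 probe. At the brightest probe the difference from Hdac6 KD was -0.28 for Tip60 KD (adjusted p = 0.0503) and -0.31 for double KD (adjusted p = 0.0702), while double KD and Tip60 KD differed by -0.03 (interval -0.21 to 0.15, adjusted p = 0.964). The call for Tip60 KD against Hdac6 KD was lost when any one of the Tip60 KD or Hdac6 KD arrays was left out (adjusted p = 0.145 to 0.189), and that for double KD against Hdac6 KD when any one of the 8 arrays was (adjusted p = 0.105 to 0.264). At the second probe Tip60 KD differed from Hdac6 KD by -1.01 (adjusted p = 0.0110), and double KD from Tip60 KD by 0.50 (adjusted p = 0.169, or 0.0113 with the replicate block). Double KD differed from Hdac6 KD there by -0.51 (adjusted p = 0.126, or 0.00617 with the block).

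Arrdc3 was lower in Tip60 KD and double KD, and not called in Hdac6 KD. Its probe (mm9 chr13:81034981-81035040) read 0.39 and 0.27 on the control KD arrays, -0.52 and -0.59 on those of Tip60 KD, 0.38 and 0.32 on those of Hdac6 KD, and -0.06 and -0.02 with both depleted. The Hdac6 KD arrays fell within the range of the control KD arrays, and the double KD arrays between those and the Tip60 KD arrays. Arrdc3 changed by -0.88 in Tip60 KD (SE 0.08, 54.2% of control KD, adjusted p = 0.00129) and by -0.37 in the double knockdown (77.3%, adjusted p = 0.0227), and the difference in Hdac6 KD was 0.02 (interval -0.18 to 0.21, adjusted p = 0.922). Without the A array of control KD the double KD call was lost (-0.31, adjusted p = 0.103).

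The knockdowns differed from each other in Arrdc3. The difference of Tip60 KD from Hdac6 KD was -0.90 (adjusted p = 0.00351), a call kept under each alternative except the 2-fold minimum. Double KD differed from Tip60 KD by 0.51 (adjusted p = 0.0686) and from Hdac6 KD by -0.39 (adjusted p = 0.0533). The first of these was lost when any one of the 8 arrays was left out (adjusted p = 0.135 to 0.263), and the second when an Hdac6 KD or double KD array was (adjusted p = 0.169 to 0.240).

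Arrdc2 and Arrdc1 passed in no comparison at their brightest probes. Arrdc2 (mm9 chr8:73359065-73359124) read 0.02 and 0.01 on the control KD arrays, -0.10 and 0.13 on those of Tip60 KD, -0.40 and -0.06 on those of Hdac6 KD, and -0.26 and -0.03 with both depleted. The Tip60 KD arrays lay on either side of control KD, and both Hdac6 KD arrays below it. Arrdc2 in Hdac6 KD was at 84.5% of control KD, a difference of -0.24 (interval -0.62 to 0.13, adjusted p = 0.331, or 0.0843 with the replicate block). Its second probe, shifted by 11 bases, gave -0.27 (adjusted p = 0.113, or 0.0414 with the block), and there Tip60 KD was 0.33 above Hdac6 KD (adjusted p = 0.0840).

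Arrdc1, at the probe at mm9 chr2:24780875-24780934, read -0.85 on both control KD arrays, -0.87 and -1.07 on those of Tip60 KD, -0.77 and -0.95 on those of Hdac6 KD, and -0.74 and -0.84 with both depleted. The groups lay within 0.18 of each other in their means. Differences from control KD were -0.12 (interval -0.38 to 0.14), -0.01 (-0.27 to 0.25) and 0.06 (-0.20 to 0.32), so a change of the size seen for Arrdc3 in Tip60 KD lies outside the intervals. The second Arrdc1 probe read between -2.60 and -1.90, close to the floor of -2.71, and gave wider intervals.

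**Figure D2:**
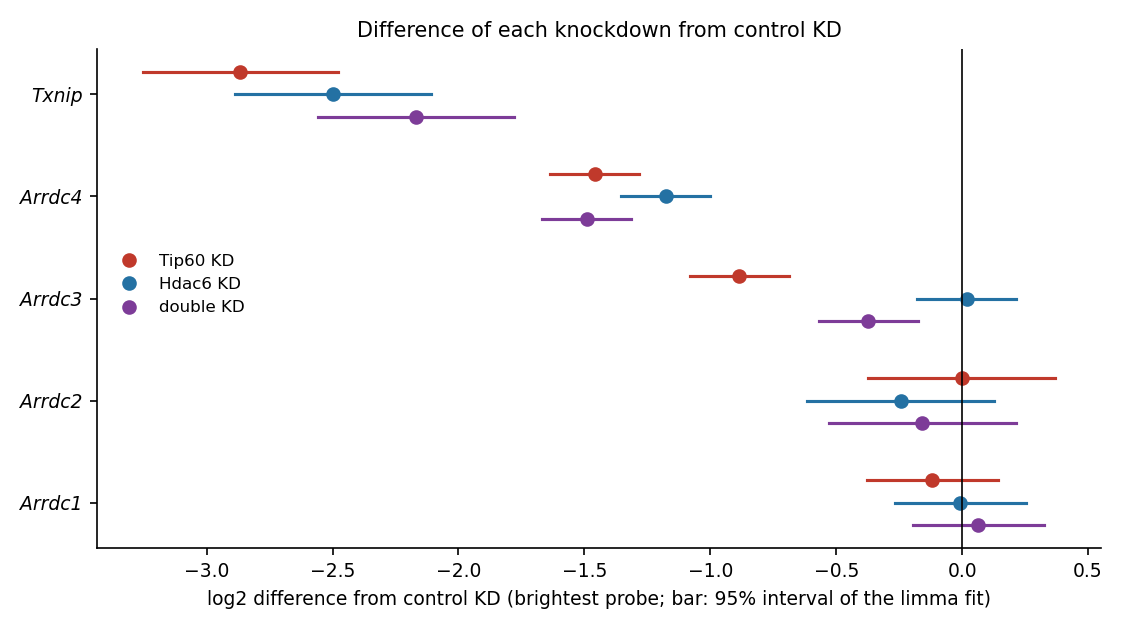
Log2 difference of each knockdown from control KD (x axis) for the brightest probe of each alpha-arrestin (y axis), with points for the estimates and bars for 95% intervals of the limma fit over 2 arrays per group. Txnip and Arrdc4 lay below 0 in all 3 knockdowns, Arrdc3 in Tip60 KD and double KD, and the intervals of Arrdc1 and Arrdc2 all covered 0. Txnip was chosen by these differences, so its intervals are a description and not a test.

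By count, 2 of the 4 Arrdc genes were lower in Tip60 KD, where 20% of all genes tested were called lower and 19.7% higher. With Hdac6 depleted 1 of 4 was lower (14.9% of all genes lower, 14% higher), and with both depleted 2 of 4 were (16.9% lower, 15.9% higher). No Arrdc gene was called higher by limma in these comparisons, and none was higher at an unadjusted p under 0.05. With every probe tested on its own, 3 of 7 Arrdc probes were lower in Tip60 KD (19.8% of all probes), 2 of 7 with Hdac6 depleted (15.1%) and 3 of 7 with both depleted (17%). Between knockdowns, Arrdc3 and Arrdc4 were the 2 of 4 called in Tip60 KD against Hdac6 KD, where 23.5% of all genes were called in either direction, and in double KD against Hdac6 KD, where 10.1% were. Arrdc3 was the 1 of 4 called in double KD against Tip60 KD, where 3.71% of all genes were. With 4 genes these shares cannot be set apart from the background. By size, Arrdc4 was number 85 from the lowest of all genes in Tip60 KD, number 122 with Hdac6 depleted and number 32 with both depleted, and Arrdc3 was number 692 in Tip60 KD.

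**Figure D3:**
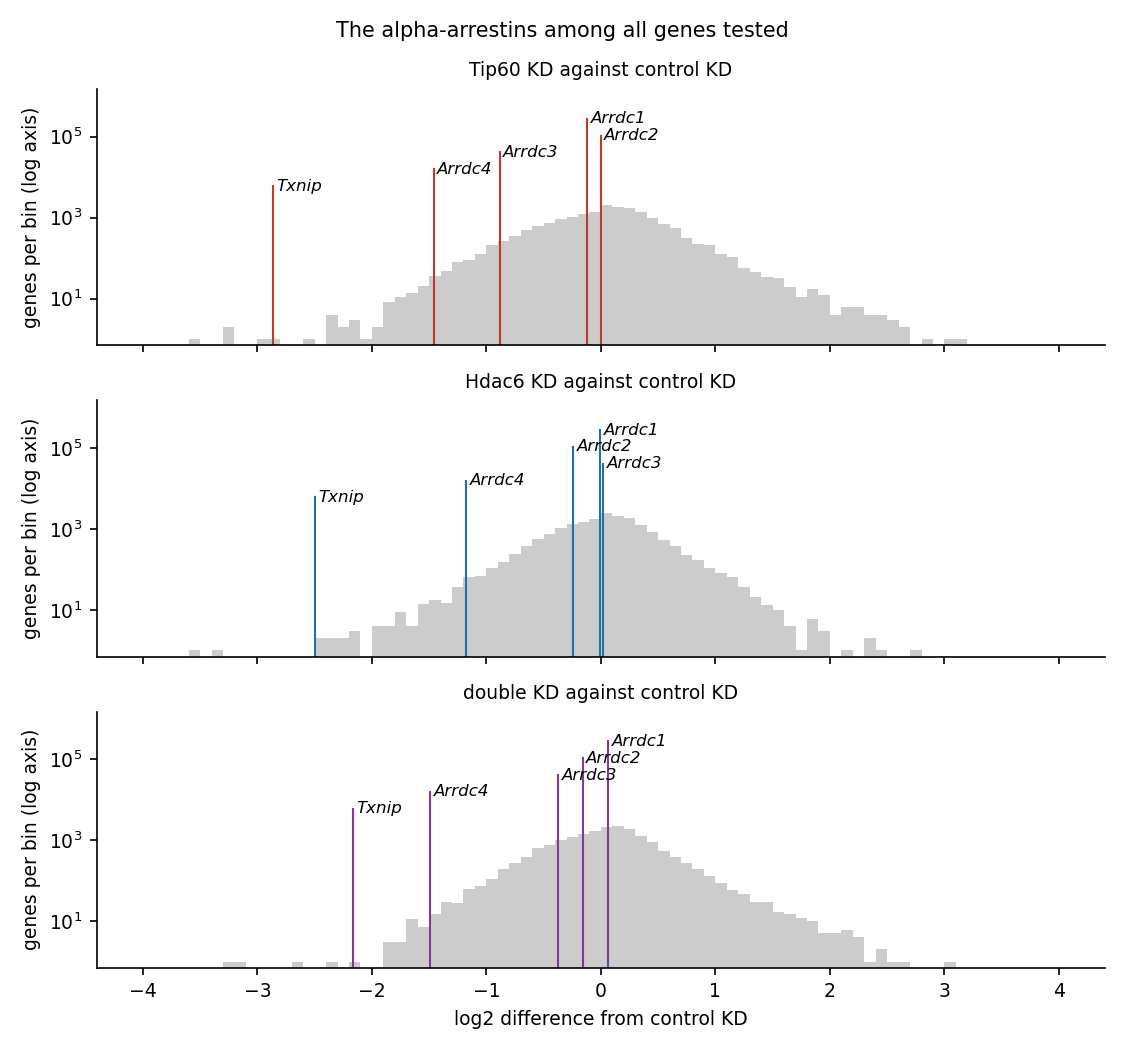
Number of genes per bin of 0.1 (y axis, log scale) by log2 difference from control KD (x axis) over all 18116 genes tested, with the alpha-arrestins marked by coloured lines whose heights carry no value. Txnip lay at the far low end in each knockdown and Arrdc4 in the lower tail, whereas Arrdc1 and Arrdc2 lay among the bulk of genes.

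Under an additive model, depleting both targets would shift the log2 signal by the Tip60 KD change plus the Hdac6 KD change. For Arrdc4 the single changes summed to -2.64 and double KD changed by -1.49 at the brightest probe. The departure was 1.15 there (SE 0.10, adjusted p = 0.00744), and 2.11 (adjusted p = 0.00781) at the second probe. At the second probe the single changes were -2.62 and -1.61 from a control KD mean of 0.89. Adding both gives a level below the floor of -2.71 to which values were raised. Double KD could not reach that sum, so a departure above 0 was fixed in advance and that test cannot decide additivity. For Arrdc3 the sum was -0.87 against -0.37, a departure of 0.49 (SE 0.11, adjusted p = 0.0413). These were the 2 of 4 Arrdc genes called, where 22% of all genes were called in either direction. The Arrdc3 call was lost without the A array of control KD or the B array of Tip60 KD, Hdac6 KD or double KD (adjusted p = 0.106 to 0.135). Departures for Arrdc1 and Arrdc2 were 0.19 and 0.09 (adjusted p = 0.484 and 0.846). For Txnip, the singles summed to -5.36 against -2.17 in double KD, a departure of 3.20 (SE 0.22) that is given without a test because it is built from the values Txnip was chosen by. The double KD of both Txnip and Arrdc4 thus lay near the single knockdowns rather than at their sum. Kat5 and Hdac6 were depleted in double KD to 40.4% and 27.3% of control KD, the latter less than in Hdac6 KD, and the part of this in the departures was not tested.

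**Figure D4:**
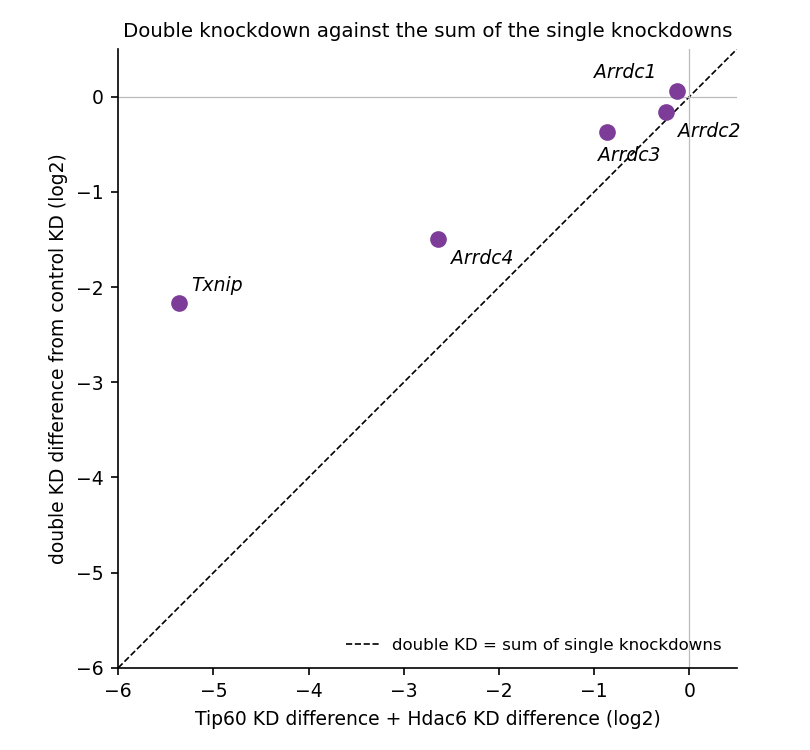
Log2 difference of double KD from control KD (y axis) against the sum of the Tip60 KD and Hdac6 KD differences (x axis) for each alpha-arrestin, with a dashed line where both are equal. Txnip (-5.36 against -2.17), Arrdc4 (-2.64 against -1.49) and Arrdc3 (-0.87 against -0.37) lay above the line.

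Over the 8 arrays, the genes whose log2 signal was most like that of Txnip were Klhl36, Fam241b, Rhox5, Klhl26 and Mrpl23, with Pearson r of 0.996, 0.996, 0.996, 0.995 and 0.994 among 14129 genes above the floor on all arrays. Having been picked for that likeness, they shared its order of knockdowns, at smaller sizes. Rhox5, an X-linked homeobox gene, differed from control KD by -1.60 with Tip60, -1.41 with Hdac6 and -1.29 with both depleted. Arrdc4 correlated with Txnip at 0.946 and was number 420 in that order. Over the 6 knockdown arrays alone their correlation was -0.07. Both values are for the brightest probes. The order of the knockdowns differed at the second Arrdc4 probe, which was not used here. The genes most like Arrdc4 that have a name were Prss36 (0.994), Abca7 (0.994) and Prmt7 (0.993). All these values share the same arrays, and the step between control and knockdown enters each r over 8 arrays. Over the 6 knockdown arrays alone, r was 0.930 to 0.960 for the genes named as most like Txnip. For Prss36, Abca7 and Prmt7 with Arrdc4 it was 0.885, 0.883 and 0.953. These genes were picked on arrays that include those 6, so the values are a description.

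Genes of related pathways were taken from 7 lists with 46 genes, of which 43 were tested. In Tip60 KD 18 of the 43 were lower and 4 higher (41.9% and 9.30%, beside 20% and 19.7% of all genes). With Hdac6 depleted 6 were lower and 5 higher (14.0% and 11.6%, beside 14.9% and 14% of all genes). With both depleted 14 were lower and 3 higher (32.6% and 6.98%, beside 16.9% and 15.9% of all genes). The median difference over the 43 genes was -0.19, -0.03 and -0.14, against 0.06, 0.03 and 0.05 over all genes. With the replicate block, 28, 22 and 25 of the 43 were called in either direction in that order (21 lower and 7 higher, 12 and 10, and 18 and 7), where 60.8%, 52.9% and 55.4% of all genes were. Without it, 39.7%, 28.9% and 32.8% of all genes were called in either direction.

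**Figure D5:**
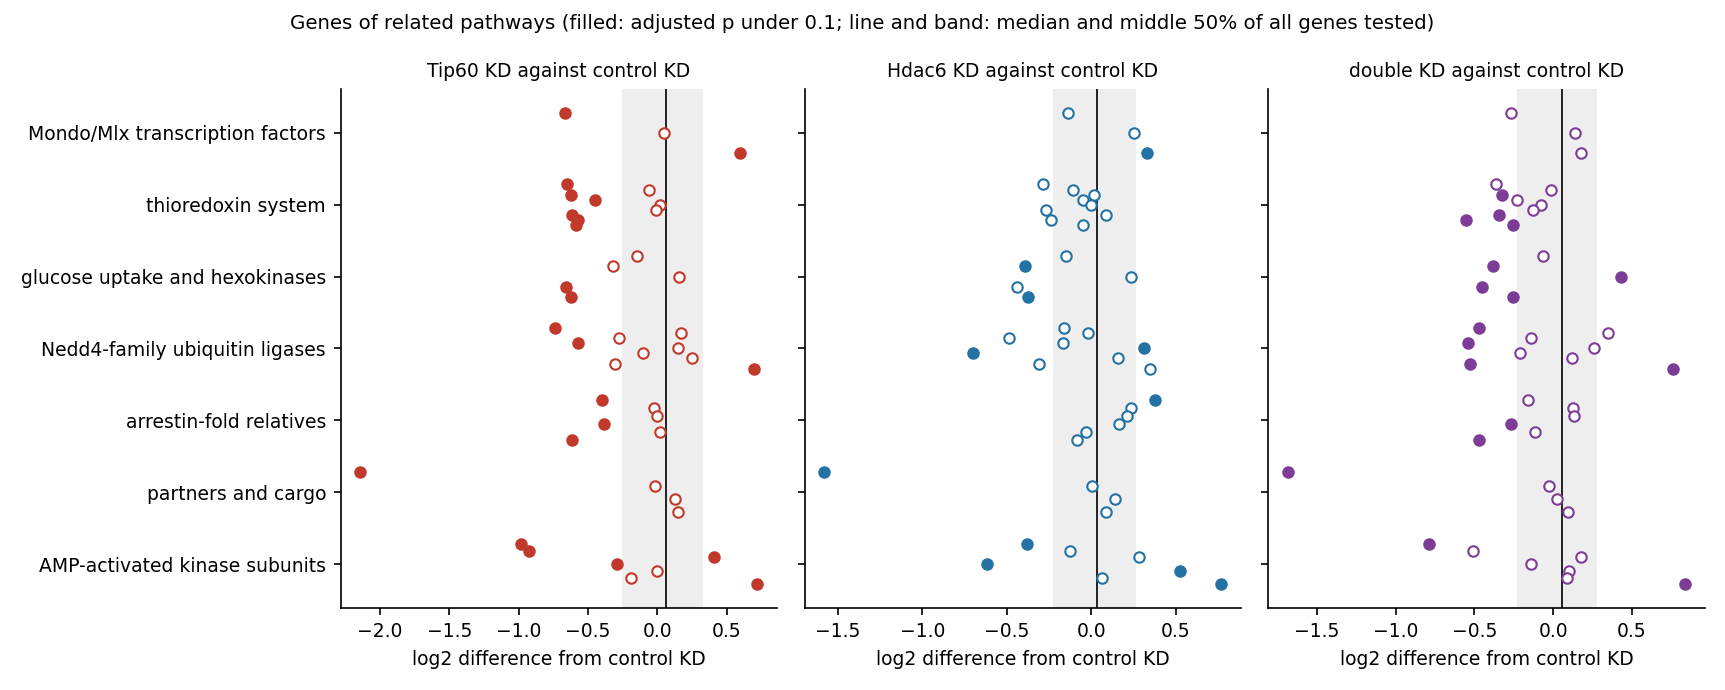
Log2 difference from control KD (x axis) of each tested gene in 7 related lists (y axis), with a panel for each knockdown, filled where the adjusted p was under 0.1, with the median (line) and middle 50% (band) of all genes tested. Ddit4, in the list of partners and cargo, lay far to the left in all 3 panels, and 6 of 9 genes of the thioredoxin system were filled and below 0 in Tip60 KD.

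The factors that act on the carbohydrate response element did not all move one way. Mlxip, which encodes MondoA, read 1.48 and 1.58 on the control KD arrays, 0.94 and 0.78 on those of Tip60 KD, 1.45 and 1.33 on those of Hdac6 KD, and 1.34 and 1.18 on the double KD arrays, and was called lower in Tip60 KD only (-0.67, adjusted p = 0.00608). Its difference was -0.14 with Hdac6 depleted (adjusted p = 0.438) and -0.27 with both depleted (adjusted p = 0.126, or 0.0446 with the replicate block), and Tip60 KD differed from Hdac6 KD by -0.53 (adjusted p = 0.0241). Mlx, the shared partner, rose in Tip60 KD (0.59, adjusted p = 0.00512) and Hdac6 KD (0.33, adjusted p = 0.0497), and differed by 0.17 with both depleted (adjusted p = 0.222, or 0.0663 with the block). Mlxipl, which encodes ChREBP, differed by 0.04, 0.25 and 0.14 and was not called, except with the block where Hdac6 was depleted (adjusted p = 0.403, or 0.0719 with the block).

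In the thioredoxin system, the redox relay whose thioredoxin Txnip binds, 6 of 9 genes were lower in Tip60 KD, where 20% of all genes were, and 4 of 9 in double KD, where 16.9% were. By limma none was called in Hdac6 KD, and with the replicate block 3 were lower there, beside 25.2% of all genes lower with the block. Txnrd1, which encodes a thioredoxin reductase, changed by -0.62 in Tip60 KD (adjusted p = 0.00276) and -0.33 with both depleted (adjusted p = 0.0291), and its difference in Hdac6 KD was 0.02. Among the peroxiredoxins, which reduce peroxides, Prdx2 changed by -0.62 in Tip60 KD and by -0.34 with both depleted, Prdx3 by -0.57 and -0.56, and Prdx5 by -0.59 and -0.26, all called. Txn1 itself, named outside the rule for naming genes because it is the partner of Txnip, fell by 0.65 in Tip60 KD (adjusted p = 0.0297).

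Ddit4 encodes a stress-induced inhibitor of mTORC1 that can form a complex with Txnip. At the brightest probes it fell by more than Arrdc4 and by less than Txnip in each knockdown. It read 4.38 and 4.32 on the control KD arrays, 2.24 and 2.17 on those of Tip60 KD, 2.74 and 2.80 on those of Hdac6 KD, and 2.71 and 2.62 on the double KD arrays. Every knockdown array was thus below the control KD arrays. Ddit4 changed by -2.14, -1.58 and -1.68 in that order (adjusted p = 0.000413, 0.00114 and 0.000795), and its departure from additivity was 2.04 (adjusted p = 0.00502). Ddit4 was the 1 of 4 genes of its list called in each knockdown, where 39.7%, 28.9% and 32.8% of all genes were called in either direction.

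Genes for glucose uptake gave smaller differences. Hk2, a hexokinase gene, changed by -0.62 in Tip60 KD (adjusted p = 0.00286), -0.38 with Hdac6 depleted (adjusted p = 0.0223) and -0.25 with both depleted (adjusted p = 0.0624). Hk1 changed by -0.66 in Tip60 KD (adjusted p = 0.0251) and -0.45 with both depleted (adjusted p = 0.0943). Its difference in Hdac6 KD was -0.44 (adjusted p = 0.112, or 0.00374 with the replicate block). The transporter gene Slc2a3 changed by -0.39 with Hdac6 and -0.38 with both depleted (adjusted p = 0.0768 and 0.0752). Its difference in Tip60 KD was -0.32 (adjusted p = 0.106, or 0.00494 with the block), and Tip60 KD and Hdac6 KD differed by 0.07 (adjusted p = 0.846). Slc2a4 rose by 0.43 with both depleted (adjusted p = 0.0220). Of the AMP-activated kinase, which marks Txnip for degradation, 5 of 7 subunit genes were called in Tip60 KD, 3 lower and 2 higher, beside 20% and 19.7% of all genes. With Hdac6 depleted 4 of 7 were called, 2 each way (14.9% of all genes lower, 14% higher), and with both depleted 2 of 7, 1 each way, or 4 of 7 with the replicate block (55.4% of all genes). The catalytic subunit gene Prkaa1 changed by -0.98 in Tip60 KD (adjusted p = 0.00129), -0.38 with Hdac6 depleted (adjusted p = 0.0320) and -0.79 with both depleted (adjusted p = 0.00359). Prkaa2, the other catalytic subunit gene, fell by 0.93 in Tip60 KD (adjusted p = 0.0641), and the regulatory subunit genes Prkag3 and Prkab1 rose by 0.72 and 0.41 there. In Hdac6 KD Prkab2 fell by 0.62 (adjusted p = 0.0152) and Prkag1 rose by 0.52 (adjusted p = 0.0310). Prkag3 was also called higher with Hdac6 and with both depleted (0.77 and 0.84, adjusted p = 0.0519 and 0.0357).

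Of the Nedd4-family ligases that alpha-arrestins recruit, 3 of 9 were called in Tip60 KD (39.7% of all genes), 2 with Hdac6 depleted (28.9%) and 4 with both depleted (32.8%), shares near those of all genes. With the replicate block they were 6, 5 and 6 of 9, where 60.8%, 52.9% and 55.4% of all genes were called in either direction. Nedd4 changed by -0.74 in Tip60 KD (adjusted p = 0.00228) and -0.47 with both depleted (adjusted p = 0.0123), and Wwp1 by -0.57 and -0.54. Hecw2 was called higher in both, but lay at the floor on both control KD arrays, so no fold is given. Hecw1 changed by -0.53 with both depleted (adjusted p = 0.0703). In Hdac6 KD Smurf1 was lower (-0.70, adjusted p = 0.0789) and Wwp2 higher (0.31, adjusted p = 0.0884). Among 6 tested relatives with an arrestin fold, Arrb1, a beta-arrestin gene, fell by 0.40 in Tip60 KD (adjusted p = 0.0176) and rose by 0.37 with Hdac6 depleted (adjusted p = 0.0321). The retromer-type genes Vps26c and Vps26a changed by -0.62 and -0.39 in Tip60 KD (adjusted p = 0.0169 and 0.0191).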

How the data were processed

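RNA from 8 samples was labelled with Cy3 and hybridised to 1-colour Agilent 4x44K mouse arrays. The authors extracted the spots with Agilent Feature Extraction 10.7.1.1 (submitters' processing notes), and the deposited scanner files give background-subtracted intensity per spot and probe positions in mm9. The deposited series matrix holds log2 values of the same arrays, which rank like each array's median signal and have array medians near 8.2, with the scaling not given in the sources used here. It served as an alternative only.

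Spots marked as outliers were dropped and spots of a probe averaged. The processed intensity was divided by the array's 75th percentile, raised to a common floor (0.153, or -2.71 in log2), and taken to log2. Probes both well above background and above that floor on at least 2 arrays were kept (22594), and the brightest probe per gene represented it (18116 genes). All 4 groups were fitted together with limma 3.58.1 in R 4.3.3, with Benjamini-Hochberg adjustment over all genes, 2-sided, threshold 0.1. The scripts were tested on simulated data. Arrays, at 2 per group, limit the precision, with 4 residual degrees of freedom. The design text calls the arrays of a group biological replicates, and nothing further says how the cultures were made.

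Arrays with the same letter shared a slide, and their A-minus-B differences correlated between groups at 0.651 to 0.799 in all 6 pairs, so the letters were taken to pair the arrays and a fit with the replicate block was an alternative. The others were normexp correction, quantile normalization, other floors, filters, percentiles and probe rules, a 2-fold minimum, the groups compared alone, and leaving out each array.

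The members and lists were chosen with earlier results of these data known. Named genes were all members, Kat5 and Hdac6, the Mondo/Mlx genes, up to 4 called genes per list and comparison with the lowest adjusted p in Tip60 KD, and the 5 genes most like Txnip and Arrdc4. Promoter sequences are RefSeq's (GRCm38.p6), matched by symbol and not joined to mm9 positions. One gene of the related lists is not reported here by name.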

Additional observations from a re-analysis of the deposited data

Results flagged for a closer look

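The departure of Arrdc4 from additivity, 1.15 on the log2 scale, is listed because the change that went with one knockdown differed by whether the other was present. Arrdc3 is listed for the same reason, with a departure of 0.49. Both were tested as interaction terms in the limma fit (adjusted p = 0.00744 and 0.0413), on the same 8 arrays as the other comparisons. The Arrdc3 call was lost with normexp, the series matrix, the low floor and missing values (adjusted p = 0.126, 0.110, 0.180 and 0.110). That of Arrdc4 was kept under each of these.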

How the results depend on the processing

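Of 688 recomputed values of the 35 member results, 605 kept their call (for Txnip against control KD and its departure, which had no test, they moved by less than the spread between arrays). Of these 605, 26 changed sign where neither value was called. None reversed with a call. Every test of Arrdc4 against control KD and of its departure from additivity stayed called. At its second probe the floor fixed a departure above 0 in advance. The Txnip differences from control KD were smaller with the mean of both probes (-2.36, -2.16 and -1.90), and so was its departure (2.61). The percentile over probes above background everywhere called Txnip in Tip60 KD against Hdac6 KD and in double KD against Tip60 KD (adjusted p = 0.0826 and 0.0496), and the mean of probes called the latter (0.0790). The calls of Arrdc3 in double KD against a single knockdown, and of Arrdc4 in double KD against Hdac6 KD, were lost under at least 10 of the alternatives run.

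The counts below are of all genes tested and of the 4 Arrdc genes, and only those that moved by over 1.5 times are given. The genes tested were 18116, except 28738 with the low floor, 22358 to 28121 with missing values, 18118 with the other percentile, 22594 probes with every probe tested, and 17982 to 18116 without an array. With the replicate block the calls over all genes rose against control KD to 11022 for Tip60, 9591 for Hdac6 and 10045 for the double knockdown (7201, 5240 and 5939 without it), 7520 in Tip60 KD against Hdac6 KD (4251), 4748 and 5325 in double KD against Tip60 KD and Hdac6 KD (672 and 1829), and 8528 for additivity (3990). Arrdc2 was then called in Hdac6 KD, making 2 Arrdc genes, as it was with the mean of a gene's probes (2). The block changed no other call of an Arrdc gene at its brightest probe.

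For double KD against Tip60 KD, the calls were 59 with normexp, 1076 with quantile normalization, 111 with the series matrix, 1487 with the percentile over probes above background everywhere, 1068 with every probe tested and 13 with a 2-fold minimum. They were 0 by limma with a low floor, with floored values set to missing and with only the groups compared, where 2237, 2564 and 2196 genes had an unadjusted p under 0.05. For double KD against Hdac6 KD they were 1150, 1056, 186, 385 and 144 with normexp, the series matrix, the low floor, missing values and the 2-fold minimum, and 0 with only the groups compared (3130 at an unadjusted p under 0.05). Tip60 KD against Hdac6 KD gave 1830, 2414 and 2411 with the low floor, missing values and only the groups compared, Hdac6 KD against control KD gave 3252 with the low floor, and additivity gave 1114 and 2247 with the low floor and missing values. The 2-fold minimum left 902, 443 and 530 genes against control KD, 337 in Tip60 KD against Hdac6 KD and 727 for additivity.

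Of the 4 Arrdc genes, normexp and the series matrix each left 1, Arrdc4, called for additivity, 1, again Arrdc4, in double KD against control KD, and 0 in double KD against either single knockdown. The low floor and missing values each left 1 for additivity, 1 in Tip60 KD against Hdac6 KD and 0 in the double KD comparisons with single knockdowns. Only the groups compared left 1 in Tip60 KD against Hdac6 KD and 0 in those comparisons, the other percentile 1 in double KD against Hdac6 KD, and the 2-fold minimum 1 in Tip60 KD, 1 in double KD, 1 for additivity and 0 between knockdowns.

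Leaving out each array gave 2664 to 4886 calls in Hdac6 KD, 3749 to 5537 in double KD, 1963 to 3767 in Tip60 KD against Hdac6 KD, 0 to 12 in double KD against Tip60 KD (2272 to 2871 at an unadjusted p under 0.05 where it was 0), 156 to 1287 in double KD against Hdac6 KD and 2004 to 2753 for additivity. The Arrdc counts were then 1 to 2 in double KD, in Tip60 KD against Hdac6 KD and for additivity, 0 to 1 in double KD against Hdac6 KD and 0 in double KD against Tip60 KD. A lone array was assumed to vary like the other groups. The causes of these changes were not tested.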
